A study of Homo sapiens with 32 samples.

Results

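The genes described here are 42 known targets of hypoxia-inducible factor 1 (HIF1) that act outside glycolysis, followed across 3 lines of Caco-2 cells in dishes and in the HoxBan system. They were chosen by name as a list of established HIF1 targets, with earlier results of these data known. Each was matched to the row of its Ensembl gene in the count table. All 42 had counts, out of 30677 rows with at least 1 count, and 38 of them passed the filter on low counts and were tested among 12849 genes. The other 4 were too low to test: LOXL2 had 31 counts over all 32 libraries, PPP1R3C 2, CA9 63 and ANGPTL4 103. For each gene, 2 questions were asked of the data: whether its level changed from a 2D dish to HoxBan, and how far its level and that change were lower in cells edited in HIF1A.

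HIF1 is a pair of proteins, an oxygen-regulated α subunit from HIF1A and the partner ARNT, that binds short DNA letters next to its target genes. When oxygen is plentiful, prolyl hydroxylases mark the α subunit and VHL directs its destruction, and when oxygen falls the subunit accumulates and its targets are transcribed. The targets best known from metabolism are the glycolytic enzymes, while those outside glycolysis hydroxylate and crosslink collagen, remove mitochondria, store lipid and glycogen, balance acid, signal to vessels, or repress transcription and growth. The epithelium of the colon lives next to an oxygen-free lumen, and HIF1 is known to be active in it.

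Caco-2 is an established line of intestinal epithelial cells from a colon adenocarcinoma. WT denotes the unedited cells, e.v. cells that carry inducible Cas9 and a guide vector without a guide, and cl.21 a clone whose label gives only its clone name. The study's methods describe Caco-2 Cas9 cells given a guide against HIF1A and grown as picked clones, and cl.21 is read here as that HIF1A-null line. In HoxBan, cells grown on a coverslip lie face down on agar for anaerobic bacteria under oxygenated medium. HoxBan thus differs from a dish in several ways at once, among them the agar with bacterial medium and the inverted cells. The labels give no oxygen level, so the parts of these in a change from 2D cannot be told apart. Monoculture is HoxBan without bacteria, and co-culture is HoxBan with Faecalibacterium prausnitzii, a butyrate-producing anaerobe of the gut, in the agar. Each line has 3 libraries in 2D (4 for WT), 3 in monoculture and 3 in co-culture, and "HoxBan" below means the average of monoculture and co-culture. The cl.21 cells descend from 1 clone, WT cells received neither Cas9 nor drug selection, and the labels do not say that libraries came from separate cultures. A difference between cl.21 and either of the other lines therefore cannot be told apart from a difference between clones, and p-values measure the spread between these libraries, which may be technical.

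The 28 libraries of these groups held 4144373 to 6686797 counts, and a level in CPM is a count per 1000000 of the TMM-adjusted library size. Because the reads start at the 3′ ends of transcripts, CPM compares a gene between libraries and not genes of one library by length. Of 10 epithelial markers 8 had a mean of at least 1 CPM, with a sum of 3002 to 6377 CPM per library, whereas CDX1 and LGALS4 were near 0. That sum differed between lines in HoxBan: it was 5144 to 6377 CPM in e.v. and 3002 to 4892 in cl.21 in co-culture, and 4150.0 to 5662 and 3018 to 4413 in monoculture. Marker lists of other cells summed to 8.79 to 50.4 CPM (6 immune genes), 19.3 to 58.0 (6 of fibroblasts), 1.88 to 6.19 (4 of endothelium) and 7.72 to 39.8 (5 of goblet cells), with 3, 3, 1 and 1 of their genes at a mean of at least 1 CPM. The fibroblast sum was mostly COL1A1 (12.2 to 41.4 CPM), COL3A1 (0.552 to 16.7) and PDGFRB (3.22 to 10.4), that of endothelium PECAM1 (1.88 to 6.19) and that of goblet cells TFF3 (7.46 to 39.8), whereas PTPRC, CD3E, DCN, CDH5 and MUC2 were near 0. The immune sum, mostly LYZ, was higher in e.v. libraries (26.2 to 50.4 CPM) than in those of cl.21 (8.79 to 27.1) or WT (12.0 to 24.2), and the part of these markers in the results was not tested. HIF1A itself was at 129, 142, 143 and 167 CPM in WT 2D, 170.3, 174 and 215 in WT monoculture and 160.0, 180.2 and 206 in WT co-culture. In e.v. cells HIF1A was at 147, 154 and 180.4 CPM in 2D, 190.2, 235 and 355 in monoculture and 242, 275 and 309 in co-culture. In cl.21 it was at 84.9, 86.2 and 90.3 CPM in 2D, 164, 173 and 194 in monoculture and 137, 159 and 210.1 in co-culture. HIF1A RNA was thus still present in cl.21. In 2D the cl.21 values lay below those of both other lines, and in HoxBan they overlapped both. The log2 difference of HIF1A in cl.21 from e.v. cells was -0.89 ± 0.19 (estimate ± SE, as throughout) in 2D (adjusted p = 0.00972) and -0.61 ± 0.13 in HoxBan (adjusted p = 0.00395). In a separate RT-PCR experiment the study reported no significant difference in HIF1A RNA between null and vector control cells. Counts at the 3′ end do not show a small change at a guide's site elsewhere in the gene, so this level does not check the edit.

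Single libraries stood apart in these genes. Library 5 of WT 2D was the highest of its group for 31 of the 38 tested members, against 24.3% of all tested genes, and library 8 of that group was the lowest for 31, against 22.2%. Library 19 of WT monoculture was the highest for 29 members (35.9% of all genes) and library 28 of WT co-culture for 27 (39.6%). Library 11 of e.v. monoculture was the lowest for 30 members, against 38.3% of all genes. The mitochondrial share of counts moved with the culture. It was 6.36% to 23.6% in the 18 HoxBan libraries, above 7 of the 10 in 2D (4.49% to 6.32%), while 1 library of each line in 2D had 14.1% (WT), 17.1% (e.v.) or 15.3% (cl.21). With this share as a covariate, 4, 10 and 8 members rose from 2D to HoxBan in WT, e.v. and cl.21, and 3, 3 and 2 fell. Of all 12849 tested genes, 2322, 2474 and 2029 then rose, beside 1594, 1954 and 1716 without the covariate. Those that fell were 2668, 2831 and 2427, beside 2059, 2388 and 2036. Because WT libraries 5, 19 and 28 were high, a WT result that loses its call or moves by over 1.5 times without these 3 is given also without them. In RNA from whole cultures, fewer cells that express a gene and less of its RNA per cell cannot be told apart.

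**Figure D1:**
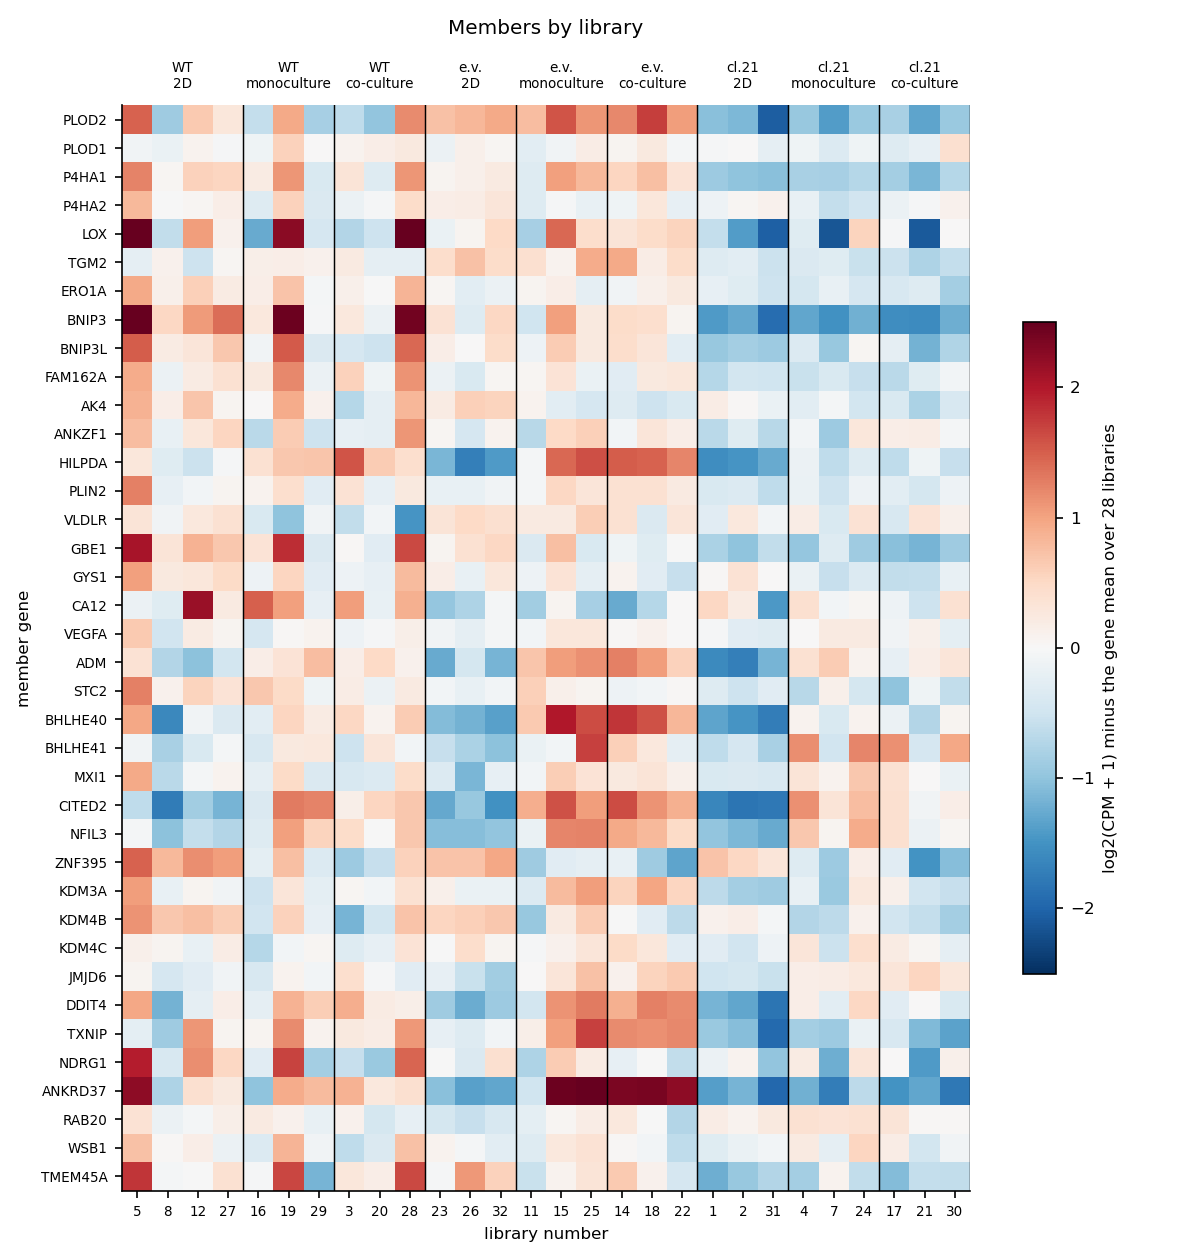
Levels of the 38 tested members (rows) in the 28 libraries (columns, by library number, with the 9 groups above), as log2(CPM + 1) minus the mean of the gene over the 28 libraries. Libraries 5, 19 and 28 stand out within WT, ANKRD37 and BHLHE40 are high in e.v. cells in HoxBan, and PLOD2 and BNIP3 are low in all 9 cl.21 libraries.

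The sequences in front of 4 of the genes lower in cl.21 than in e.v. cells in HoxBan are printed here. HIF1 binds DNA at the letters ACGTG or GCGTG, the core of a hypoxia response element. Each sequence is the 250 bases before the start site in RefSeq on GRCh38.p14, written 5′ to 3′ on the strand of the gene, and capitals mark ACGTG or GCGTG on either strand (a capital run of CACGT or CACGC is the same letters on the opposite strand, and overlapping matches merge). The 4 are those with the smallest adjusted p against e.v. cells in HoxBan among the members with an entry. HILPDA and TGM2 have none.
ANKRD37, chr4:185396591-185396840, plus strand: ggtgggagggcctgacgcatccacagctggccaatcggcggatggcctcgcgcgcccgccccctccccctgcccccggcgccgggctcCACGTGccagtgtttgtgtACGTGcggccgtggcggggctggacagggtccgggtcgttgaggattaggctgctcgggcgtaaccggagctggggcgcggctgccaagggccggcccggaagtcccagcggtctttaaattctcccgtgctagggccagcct
PLOD2, chr3:146161185-146161434, minus strand: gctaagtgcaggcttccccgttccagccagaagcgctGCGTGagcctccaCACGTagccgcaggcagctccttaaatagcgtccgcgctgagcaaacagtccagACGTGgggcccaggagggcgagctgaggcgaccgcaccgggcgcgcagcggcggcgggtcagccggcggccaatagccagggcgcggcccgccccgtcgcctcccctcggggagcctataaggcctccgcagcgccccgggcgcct
TXNIP, chr1:145996580-145996829, minus strand, the first of 2 listed start sites: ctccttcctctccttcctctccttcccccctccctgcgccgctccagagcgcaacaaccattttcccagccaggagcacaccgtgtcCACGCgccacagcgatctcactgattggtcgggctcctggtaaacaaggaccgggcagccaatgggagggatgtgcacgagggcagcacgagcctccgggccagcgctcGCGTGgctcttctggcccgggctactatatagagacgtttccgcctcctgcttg
P4HA1, chr10:73096867-73097116, minus strand: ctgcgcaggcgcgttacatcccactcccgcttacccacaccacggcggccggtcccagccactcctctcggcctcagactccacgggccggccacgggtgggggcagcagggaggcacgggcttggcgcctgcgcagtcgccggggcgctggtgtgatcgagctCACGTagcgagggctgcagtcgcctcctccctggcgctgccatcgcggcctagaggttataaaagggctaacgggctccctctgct
In ANKRD37 a palindrome that reads as the motif on both strands begins at position -162 from the start site and a further match at -143. PLOD2 has matches at -213, -200 and -146, TXNIP at -163 and -54, and P4HA1 at -86. Of the 42 members 32 have an entry, and the first listed window held at least 1 of the 2 motifs in 29 of them (90.6%), against 43.1% of the 27305 genes in the table. Of the windows of members that were lower in cl.21 than in e.v. or WT cells in HoxBan, 21 of 23 held a motif, and of those of the other tested members 16 of 18. ACGTG alone was in 18.5% of the 35116 listed windows and GCGTG in 32.2%. These matches describe the letters and do not show binding.

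From 2D to HoxBan, most members did not pass the test in any line, and the genes that rose included HILPDA, ADM, CITED2 and NFIL3. In e.v. cells 11 of the 38 members rose and 2 fell, where 15.2% of all tested genes rose and 18.6% fell. In WT cells 4 rose and 3 fell, against 12.4% and 16% of all genes, and in cl.21 cells 8 rose and 1 fell, against 13.4% and 15.8%. The share of members that rose was thus below that of all genes in WT cells and above it in e.v. and cl.21 cells, and few members fell. The 4 just named rose in all 3 lines, in 1 fit that shares its estimate of spread. The share of all genes that rose in all 3 lines is not given here, so 4 of 38 cannot be set against it. BHLHE40, BHLHE41, JMJD6 and DDIT4 passed the test in e.v. and cl.21 cells, and MXI1, TXNIP and ANKRD37 in e.v. cells. ZNF395 fell in all 3 lines. The median log2 change of the 38 members was -0.23 in WT, 0.23 in e.v. and 0.23 in cl.21, beside 0.02, -0.00451 and -0.01 for all genes. Without WT libraries 5, 19 and 28, the WT count was 4 higher and 9 lower (1222 and 1855 of all genes). PLOD2, BNIP3, BNIP3L, AK4, GBE1, GYS1 and NDRG1 were then also lower in HoxBan. The call of MXI1 in e.v. is lost when any of 4 libraries is left out, as is that of KDM4B in WT, that of ADM in WT with any of 3, that of AK4 in e.v. with any of 2 and that of BHLHE41 in e.v. with 1.

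**Figure D2:**
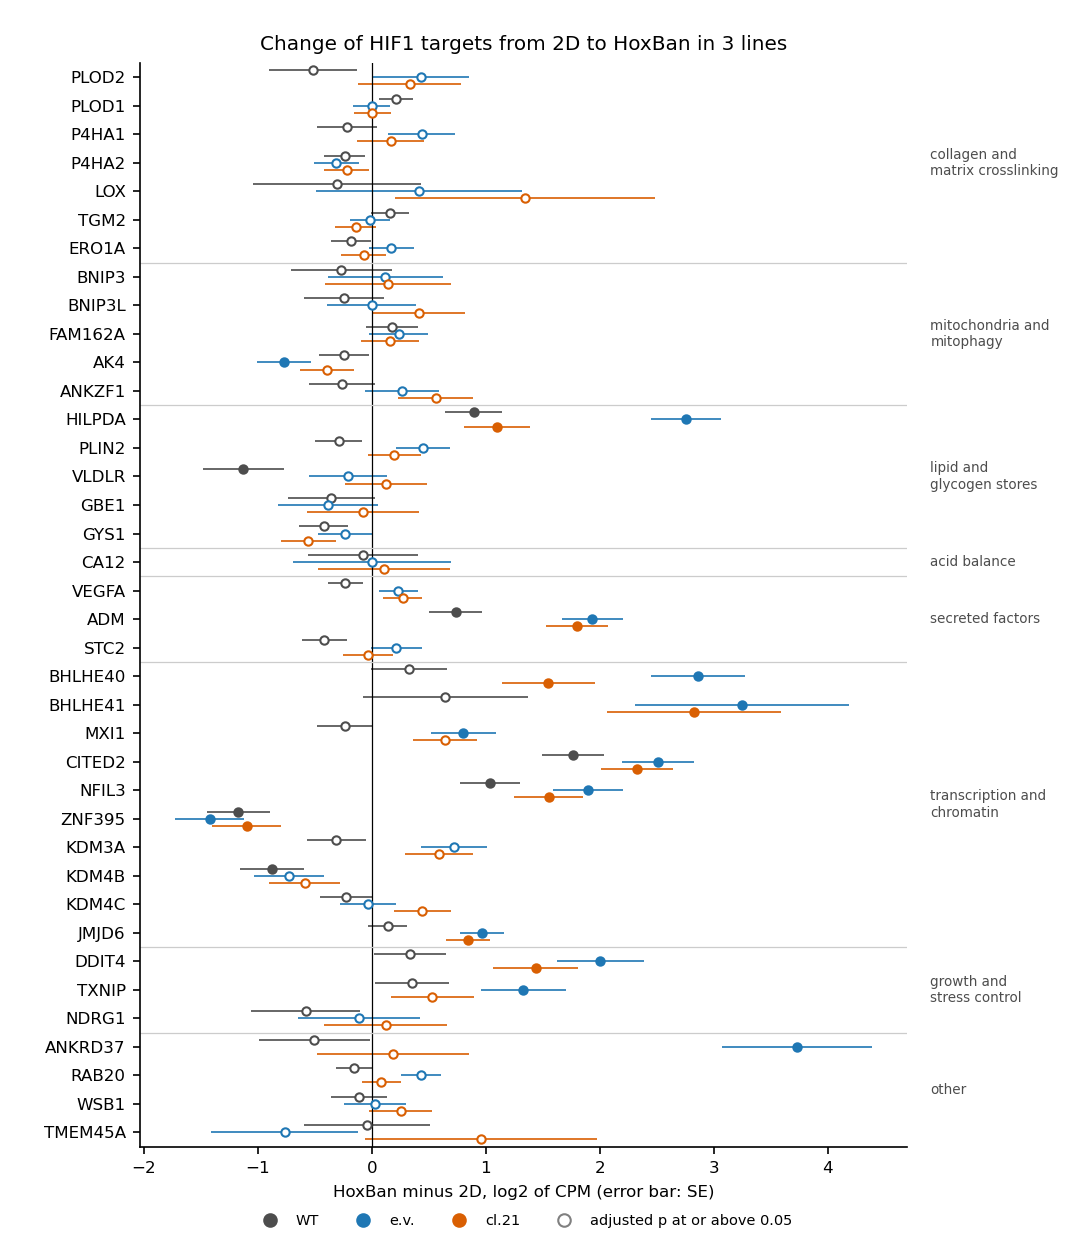
Change from 2D to HoxBan of the 38 tested members (vertical axis, grouped by role), as HoxBan minus 2D on the log2 CPM scale (horizontal axis) with its SE, in WT, e.v. and cl.21 cells. Filled points have an adjusted p under 0.05. HILPDA, ADM, CITED2 and NFIL3 are filled and above 0 in the 3 lines. ANKRD37 lies at 3.73 in e.v., near 0 in cl.21 and below 0 in WT, and is filled in e.v. only.

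Whether a change from 2D to HoxBan itself differed between lines was tested as a difference of responses. No member and no other gene passed it, so 0% of genes were higher and 0% lower in cl.21 minus e.v., 0% and 0% in cl.21 minus WT, and 0% and 0% in e.v. minus WT, by edgeR's quasi-likelihood test. At an unadjusted p under 0.05, 0 members were higher and 3 lower in cl.21 minus e.v. (143 and 128 of all genes), 8 and 0 in cl.21 minus WT (431 and 167), and 13 and 0 in e.v. minus WT (402 and 323). DESeq2 called 0 genes in both differences that involve cl.21 and 11 genes higher in e.v. minus WT, of which HILPDA, BHLHE40 and ANKRD37 are members. In simulated counts with the spread of these libraries, the test of cl.21 minus e.v. found 35% of genes with a 2-fold difference. It found 97% of those with a 4-fold difference. The simulation changed 200 genes and drew each gene independently, without shifts of a whole library. With many changed genes the adjusted threshold is easier to pass, so these shares may be too high for the data. A difference of responses near 2-fold was often not detectable, and a larger one may also have been missed.

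In the comparisons of levels between cl.21 and the other lines, every member that passed the test was lower in cl.21. In HoxBan, 12 members were lower in cl.21 than in e.v. cells and 0 were higher, where 2.72% of all genes were lower and 2.84% higher. The median of the 38 members was -0.49 on the log2 scale, beside 0.01 for all genes. In 2D, 2 members were lower in cl.21 than in e.v. cells, PLOD2 and TGM2, and 0 higher (0.467% and 0.537% of all genes). Against WT cells, 14 members were lower in cl.21 in HoxBan and 0 higher (4.73% and 6.62% of all genes), and 12 were lower in 2D and 0 higher (0.786% and 0.677%). The medians of the members were -0.39 against e.v. in 2D, -0.52 against WT in HoxBan and -0.92 against WT in 2D. These contrasts use the same cl.21 libraries, so those against e.v. and against WT are not independent of each other. The list was chosen with earlier results of these data known, so these counts are not an independent test of it. TGM2, KDM3A, DDIT4 and CITED2 are also in the study's list of genes lower in HIF1A-null than control cells in co-culture but not in monoculture. The study drew that list from its own RNA sequencing of these lines in HoxBan, so the overlap is not independent of these counts. Without WT libraries 5, 19 and 28, 9 members were lower and 1, MXI1, was higher than WT in HoxBan (518 and 860 of all genes). In 2D 7 were lower (78 of all genes). The fit shares 1 estimate of spread over all groups. Without those libraries the counts lower than e.v. cells were 17 in HoxBan and 7 in 2D (368 and 71 of all genes). Of the 12 calls against WT in 2D, those of P4HA1 and BNIP3 held without each of the 28 libraries, and the count was 2 without cl.21 library 1 or 2 or WT library 5 and 4 without cl.21 library 31. Both calls against e.v. in 2D are lost without cl.21 library 1, 2 or 31 or e.v. library 26. Against WT in HoxBan, the calls of PLOD2, BNIP3L, AK4, TMEM45A, STC2 and TGM2 are lost without 8, 6, 6, 6, 4 and 1 of the libraries, and the count was 9 without cl.21 library 4.

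**Figure D3:**
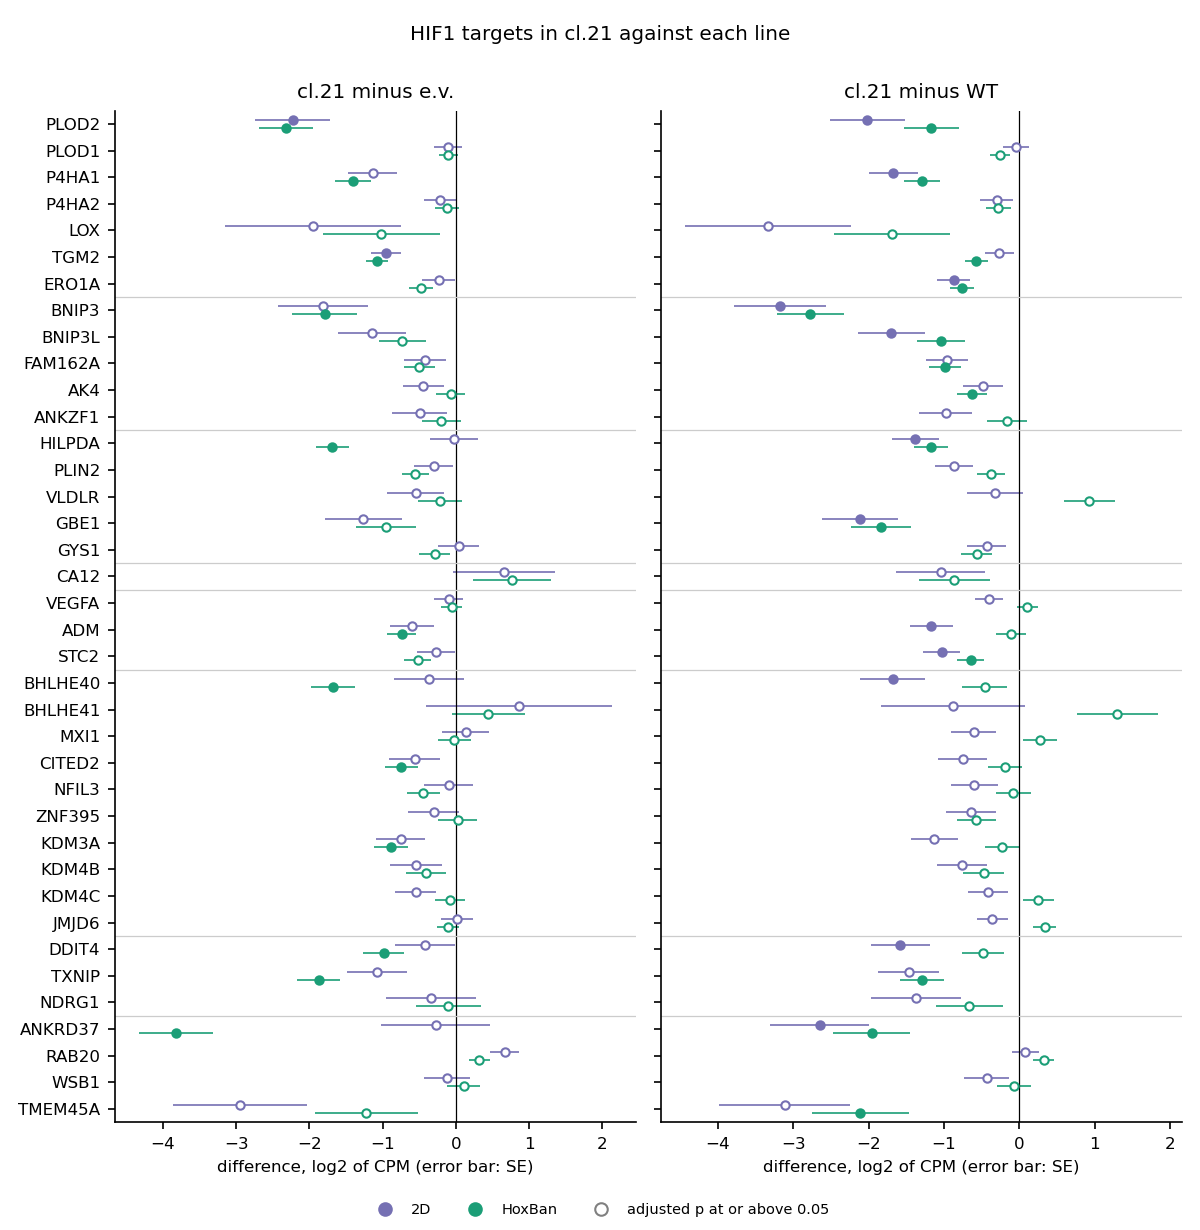
Difference between cl.21 and e.v. cells (left) and between cl.21 and WT cells (right) for the 38 tested members (vertical axis), in 2D and in HoxBan, on the log2 CPM scale (horizontal axis) with the SE. Filled points have an adjusted p under 0.05 and lie to the left of 0. PLOD2 and BNIP3 lie far to the left in both cultures, while HILPDA and ANKRD37 lie to the left of 0 against e.v. cells in HoxBan and near 0 against e.v. cells in 2D.

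Among the genes of collagen and matrix crosslinking, 3 of the 7 tested were lower in cl.21 than in e.v. cells in HoxBan (2.72% of all genes). None of the 7 passed the test from 2D to HoxBan in any line. Of all genes, 12.4%, 15.2% and 13.4% rose in WT, e.v. and cl.21, and 16%, 18.6% and 15.8% fell. PLOD2 (ENSG00000152952, chromosome 3, 146069440 to 146163653) is a lysyl hydroxylase that prepares collagen for crosslinking. In e.v. cells PLOD2 was at 108, 115 and 126 CPM in 2D, 111, 141 and 194 in monoculture and 135, 150.4 and 217 in co-culture. In cl.21 it was at 14.8, 29.3 and 30.9 CPM in 2D, 24.1, 33.1 and 33.4 in monoculture and 25.5, 33.6 and 36.7 in co-culture. WT cells held 34.7, 79.6, 103 and 183 CPM in 2D, 35.8, 42.5 and 126 in monoculture and 32.2, 41.3 and 149 in co-culture. No cl.21 library reached the lowest e.v. library in either setting, and the highest WT value of each culture came from library 5, 19 or 28. The difference from e.v. cells was -2.32 ± 0.37 in HoxBan (adjusted p = 1.85e-04), which leaves 20.0% of the e.v. level, and -2.23 ± 0.51 in 2D (adjusted p = 0.0249). Against WT it was -1.17 ± 0.36 in HoxBan (adjusted p = 0.0357), but -0.27 (adjusted p = 0.488) without libraries 5, 19 and 28, and in 2D it was -2.02 ± 0.49 (adjusted p = 0.0306).

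P4HA1 (ENSG00000122884, chromosome 10, 73007217 to 73096974) is the catalytic subunit of the prolyl hydroxylase that stabilizes the collagen helix. In e.v. cells P4HA1 was at 247, 259 and 278 CPM in 2D, 190.2, 417 and 482 in monoculture and 299.7, 345 and 402 in co-culture. In cl.21 its levels were 114, 118 and 127 CPM in 2D, 133, 134 and 145 in monoculture and 107, 132 and 145 in co-culture. WT cells held 246, 343, 352 and 565 CPM in 2D, 182, 275 and 514 in monoculture and 190.1, 296 and 513 in co-culture. All 9 cl.21 libraries lay below every e.v. and WT library. P4HA1 was lower in cl.21 than in e.v. cells in HoxBan (-1.41 ± 0.24, adjusted p = 5.24e-04) and lower than in WT (-1.29 ± 0.24, adjusted p = 0.00103), or -0.82 (adjusted p = 0.00884) without libraries 5, 19 and 28. In 2D the difference from e.v. cells was -1.14 ± 0.34 (adjusted p = 0.136) and that from WT -1.67 ± 0.33 (adjusted p = 0.00487).

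TGM2 (ENSG00000198959, chromosome 20, 38127387 to 38166578) is a transglutaminase that crosslinks proteins. TGM2 in e.v. cells was at 42.04, 42.1 and 51.1 CPM in 2D, 32.4, 40.6 and 59.2 in monoculture and 34.6, 42.3 and 59.8 in co-culture. The cl.21 libraries held 20.9, 24.2 and 25.3 CPM in 2D, 20.4, 23.5 and 24.5 in monoculture and 17.5, 19.9 and 20.8 in co-culture. WT cells held 21.0, 26.0, 31.7 and 32.8 CPM in 2D, 33.2, 33.8 and 34.4 in monoculture and 25.9, 26.2 and 36.0 in co-culture. Levels of e.v. and cl.21 cells did not overlap, while WT libraries overlapped those of cl.21 in 2D and of e.v. in HoxBan. The difference from e.v. cells was -1.07 ± 0.15 in HoxBan (adjusted p = 3.93e-05) and -0.95 ± 0.20 in 2D (adjusted p = 0.0138), and TGM2 was also higher in e.v. than in WT cells in HoxBan by 0.50 ± 0.15 (adjusted p = 0.0247). Against WT, TGM2 was lower in cl.21 in HoxBan (-0.57 ± 0.15, adjusted p = 0.0148). The last exon of TGM2 overlaps RPRD1B on the opposite strand, and the strand setting of the counting is not given in the sources used here. RPRD1B differed between cl.21 and e.v. cells in HoxBan by 0.16 on the log2 scale (adjusted p = 0.44). ERO1A, the oxidase that forms disulfide bonds in the endoplasmic reticulum, was lower in cl.21 than in WT cells in HoxBan (-0.76 ± 0.16, adjusted p = 0.00289) and in 2D (-0.87 ± 0.21, adjusted p = 0.0315), and its HoxBan difference from e.v. cells was -0.47 ± 0.16 (adjusted p = 0.0877). Without WT libraries 5, 19 and 28, the HoxBan difference of ERO1A from WT was -0.48 (adjusted p = 0.0205). The remaining genes of this group passed no test. The lysyl hydroxylase PLOD1 ranged from 25.4 to 48.5 CPM, the prolyl hydroxylase subunit P4HA2 from 33.5 to 91.3 and the lysyl oxidase LOX from 0.231 to 35.6, with its highest values in WT libraries 5, 28 and 19.

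Of the 5 mitochondrial members 0 rose in HoxBan in any line, where 12.4%, 15.2% and 13.4% of all genes rose in WT, e.v. and cl.21. With so few members, a count of 0 cannot be told apart from those shares. In HoxBan 4 of the 5 were lower in cl.21 than in WT cells and 1 than in e.v. cells (4.73% and 2.72% of all genes). BNIP3 (ENSG00000176171, chromosome 10, 131966455 to 131982013) is a receptor on the outer mitochondrial membrane that marks mitochondria for autophagy. BNIP3 was at 57.0, 83.8, 106 and 231 CPM in WT 2D, 38.5, 47.4 and 222 in WT monoculture and 35.5, 47.4 and 214 in WT co-culture. In e.v. cells it was at 31.4, 51.3 and 56.9 CPM in 2D, 27.7, 46.7 and 81.8 in monoculture and 41.6, 52.9 and 54.8 in co-culture. The cl.21 cells held 9.89, 14.2 and 15.8 CPM in 2D, 13.2, 15.4 and 16.5 in monoculture and 12.6, 12.8 and 16.4 in co-culture. The 9 cl.21 libraries lay below all 19 others. BNIP3 was lower than in e.v. cells in HoxBan (-1.79 ± 0.45, adjusted p = 0.0148), a call lost without e.v. monoculture library 15 (adjusted p = 0.056), and lower than in WT in HoxBan (-2.77 ± 0.45, adjusted p = 2.67e-04) and in 2D (-3.18 ± 0.61, adjusted p = 0.00438). The WT difference in HoxBan was -1.53 (adjusted p = 4.07e-04) without libraries 5, 19 and 28. BNIP3 has processed copies elsewhere in the genome, and how reads shared with them were counted is not given in the sources used here.

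BNIP3L, the related mitophagy receptor, was lower in cl.21 than in WT in HoxBan (-1.04 ± 0.32, adjusted p = 0.0373) and in 2D (-1.70 ± 0.44, adjusted p = 0.0497). Without libraries 5, 19 and 28 the HoxBan difference was -0.15 (adjusted p = 0.649). FAM162A, a mitochondrial membrane protein, was lower than in WT in HoxBan (-0.99 ± 0.21, adjusted p = 0.00287), with 172 to 265 CPM in the 6 cl.21 HoxBan libraries and 252 to 636 in those of WT, and the difference was -0.58 (adjusted p = 0.0231) without the 3 high WT libraries. AK4, an adenylate kinase of the mitochondrial matrix, fell from 2D to HoxBan in e.v. cells (-0.77 ± 0.24, adjusted p = 0.0131), from 178 to 234 CPM to 107 to 163. It was also lower in cl.21 than in WT in HoxBan (-0.63 ± 0.20, adjusted p = 0.0389), or -0.18 (adjusted p = 0.428) without the 3 high WT libraries. ANKZF1, a factor in the quality control of stalled ribosomes, passed no test and ranged from 16.4 to 69.3 CPM.

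Among the genes of lipid and glycogen stores, HILPDA was the member with the smallest adjusted p against e.v. cells and one of those that rose in every line. HILPDA (ENSG00000135245, chromosome 7, 128455849 to 128458418) encodes a small protein of lipid droplets that inhibits lipolysis. HILPDA was at 12.5, 15.5 and 18.8 CPM in e.v. 2D, 41.6, 119 and 133 in monoculture and 102, 121 and 126 in co-culture. In cl.21 it went from 14.0, 14.9 and 17.4 CPM in 2D to 27.3, 34.3 and 38.6 in monoculture and 27.4, 28.6 and 40.0 in co-culture, and in WT from 29.5, 34.9, 42.1 and 52.5 CPM in 2D to 56.5, 69.2 and 70.1 in monoculture and 58.1, 67.7 and 130.0 in co-culture. Every HoxBan library lay above all 2D libraries of its line, and the cl.21 HoxBan libraries lay below all HoxBan libraries of e.v. and WT cells. The rise was 2.76 ± 0.31 in e.v. (adjusted p = 2.40e-07), 1.10 ± 0.29 in cl.21 (adjusted p = 0.0054) and 0.89 ± 0.25 in WT (adjusted p = 0.00836). As folds these are 6.77, 2.15 and 1.86. The response of cl.21 minus that of e.v. was -1.66 ± 0.40, with an adjusted p of 1.00 and, without the low e.v. monoculture library 11, a value of -1.84 (adjusted p = 0.0497). In 2D the levels of cl.21 and e.v. cells overlapped, with a difference of -0.03 ± 0.33 (adjusted p = 0.998), while in HoxBan cl.21 was lower (-1.69 ± 0.22, adjusted p = 1.84e-05). Against WT, cl.21 was lower in HoxBan (-1.17 ± 0.22, adjusted p = 0.00111) and in 2D (-1.38 ± 0.31, adjusted p = 0.0152). The 2D difference was -1.21 (adjusted p = 0.0514) without libraries 5, 19 and 28, and its call is also lost without WT library 5 or cl.21 library 1 or 2.

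PLIN2, which coats lipid droplets, passed no test and was at 119 to 129.6 CPM in e.v. 2D and 131 to 196 in e.v. HoxBan, and at 88.3 to 107 and 95.5 to 126 in cl.21. GBE1, the glycogen branching enzyme, was lower in cl.21 than in WT in HoxBan (-1.84 ± 0.39, adjusted p = 0.00305) and in 2D (-2.12 ± 0.50, adjusted p = 0.0245), and its HoxBan value was -0.93 (adjusted p = 0.0189) without libraries 5, 19 and 28. GYS1, glycogen synthase, ranged from 10.4 to 34.5 CPM and passed no test. VLDLR, a lipoprotein receptor at only 0.232 to 4.25 CPM, fell in WT from 2D to HoxBan (-1.13 ± 0.35, adjusted p = 0.0185), or -0.68 (adjusted p = 0.159) without the 3 high WT libraries, of which 19 and 28 hold its lowest WT values.

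Of the membrane carbonic anhydrases, which balance acid, only CA12 was tested. It ranged from 0.913 to 21.9 CPM, and library 12 of WT 2D was at 21.9 CPM beside 3.16 to 5.00 in the other 3. CA12 was lower in e.v. than in WT cells in HoxBan (-1.63 ± 0.50, adjusted p = 0.0359), a call lost when any of 8 libraries is left out. CA9, the carbonic anhydrase best known as a marker of hypoxia, was at 0 to 3.12 CPM.

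Of the 3 secreted factors tested, adrenomedullin rose in HoxBan. ADM (ENSG00000148926, chromosome 11, 10304680 to 10307397) encodes a peptide that widens vessels. ADM was at 13.6, 14.7 and 24.9 CPM in e.v. 2D, 55.9, 71.3 and 76.4 in monoculture and 51.2, 71.9 and 83.5 in co-culture. The cl.21 values were 9.78, 10.7 and 14.8 CPM in 2D, 36.6, 44.7 and 53.2 in monoculture and 29.6, 38.2 and 42.3 in co-culture. WT cells held 16.2, 20.0, 24.4 and 44.0 CPM in 2D, 38.5, 43.3 and 59.3 in monoculture and 36.8, 38.4 and 48.6 in co-culture. In e.v. and cl.21 cells the HoxBan libraries lay above all those in 2D, whereas in WT library 5 of 2D lay within the HoxBan range. ADM rose by 1.94 ± 0.27 in e.v. (adjusted p = 4.91e-06), 1.80 ± 0.27 in cl.21 (adjusted p = 2.36e-05) and 0.74 ± 0.23 in WT (adjusted p = 0.0176), the last 1.18 (adjusted p = 8.80e-04) without libraries 5, 19 and 28. The responses of cl.21 and e.v. differed by -0.14 ± 0.36 (adjusted p = 1.00). In HoxBan cl.21 was lower than e.v. (-0.74 ± 0.20, adjusted p = 0.0265), although the highest cl.21 library exceeded the lowest of e.v., and leaving out any of 7 libraries ends that call. Its difference from WT was -0.11 ± 0.20 in HoxBan (adjusted p = 0.778) and -1.17 ± 0.28 in 2D (adjusted p = 0.0296), or -0.79 (adjusted p = 0.185) in 2D without libraries 5, 19 and 28. VEGFA, the vascular growth factor best known as a HIF1 target, passed no test and stayed within 50.3 to 112 CPM over the 28 libraries. STC2, a secreted glycoprotein, was lower in cl.21 than in WT in HoxBan (-0.65 ± 0.18, adjusted p = 0.0223) and in 2D (-1.03 ± 0.24, adjusted p = 0.0246), the latter -0.73 (adjusted p = 0.15) without libraries 5, 19 and 28. ANGPTL4, an inhibitor of lipoprotein lipase too low to test, was at 0.181 to 0.501 CPM in e.v. 2D and 0.404 to 1.49 in e.v. HoxBan. In cl.21 it had no counts in 2D and was at 0.463 to 1.13 CPM in HoxBan.

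In the transcription and chromatin group 6 of 10 members rose in HoxBan and 1 fell in e.v. cells, 5 rose and 1 fell in cl.21, and 2 rose and 2 fell in WT. The medians of the group were 0.88, 0.74 and -0.04 on the log2 scale. The shares of all genes that rose were 15.2%, 13.4% and 12.4%, and those that fell 18.6%, 15.8% and 16%. BHLHE40 (ENSG00000134107, chromosome 3, 4979116 to 4985323) is a basic helix-loop-helix repressor that also acts in the circadian clock. BHLHE40 was at 5.68, 6.51 and 7.07 CPM in e.v. 2D, 25.8, 51.4 and 67.4 in monoculture and 29.2, 50.5 and 57.7 in co-culture. Levels in cl.21 were 4.11, 5.08 and 5.79 CPM in 2D, 12.0, 17.1 and 17.2 in monoculture and 9.29, 14.4 and 16.9 in co-culture. WT cells held 4.58, 12.3, 14.9 and 32.1 CPM in 2D, 13.3, 18.7 and 23.8 in monoculture and 17.1, 23.5 and 25.2 in co-culture. HoxBan libraries of e.v. cells lay above those of cl.21 without overlap, and those of cl.21 lay above its 2D libraries. BHLHE40 rose by 2.86 ± 0.41 in e.v. (adjusted p = 8.37e-06) and 1.55 ± 0.41 in cl.21 (adjusted p = 0.00575), while the change in WT was 0.33 ± 0.33 (adjusted p = 0.49). The response of cl.21 minus that of e.v. was -1.31 ± 0.56 (adjusted p = 1.00). In HoxBan cl.21 was lower than e.v. (-1.68 ± 0.30, adjusted p = 6.43e-04) and its difference from WT was -0.46 ± 0.30 (adjusted p = 0.343), and in 2D it was lower than WT (-1.68 ± 0.43, adjusted p = 0.0426), or -1.08 (adjusted p = 0.273) without libraries 5, 19 and 28. Its relative BHLHE41, at 0 to 5.66 CPM, rose by 3.25 ± 0.94 in e.v. (adjusted p = 0.00887) and 2.83 ± 0.76 in cl.21 (adjusted p = 0.0064).

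CITED2 (ENSG00000164442, chromosome 6, 139371807 to 139374620) encodes a protein that competes with the HIF1 α subunit for the coactivator CBP and so limits HIF1. CITED2 was at 14.2, 16.9 and 21.4 CPM in e.v. 2D, 80.6, 88.0 and 128 in monoculture and 78.5, 92.8 and 133 in co-culture. For cl.21 the values were 11.2, 11.6 and 12.9 CPM in 2D, 52.7, 73.0 and 93.7 in monoculture and 39.7, 47.2 and 55.7 in co-culture. WT cells held 11.8, 18.3, 22.6 and 26.8 CPM in 2D, 32.5, 101 and 105 in monoculture and 47.0, 61.7 and 67.6 in co-culture. In all 3 lines every HoxBan library lay above every 2D library. The rises were 2.51 ± 0.32 in e.v. (adjusted p = 1.26e-06), 2.33 ± 0.32 in cl.21 (adjusted p = 5.95e-06) and 1.77 ± 0.27 in WT (adjusted p = 3.02e-05), and those of cl.21 and e.v. differed by -0.18 ± 0.41 (adjusted p = 1.00). The lower HoxBan level in cl.21, -0.74 ± 0.22 against e.v. (adjusted p = 0.0488), lies just inside the threshold and is lost when any of 19 libraries is left out. NFIL3, a basic leucine zipper repressor, rose by 1.90 ± 0.31 in e.v. (adjusted p = 3.28e-05), 1.55 ± 0.30 in cl.21 (adjusted p = 3.53e-04) and 1.03 ± 0.26 in WT (adjusted p = 0.00451). It reached 35.7 to 97.0 CPM in e.v. HoxBan and 36.6 to 78.2 in cl.21 HoxBan, with a difference of -0.45 ± 0.23 (adjusted p = 0.295). CITED2 and NFIL3 thus rose in cells edited in HIF1A as well as in the controls.

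KDM3A (ENSG00000115548, chromosome 2, 86440647 to 86492716) is a histone lysine demethylase that uses oxygen. KDM3A was at 66.3, 66.6 and 81.7 CPM in e.v. 2D, 59.0, 130.4 and 156 in monoculture and 108, 111 and 148 in co-culture. The cl.21 cells held 39.9, 41.2 and 46.7 CPM in 2D, 38.6, 65.4 and 90.2 in monoculture and 49.98, 53.4 and 82.0 in co-culture. WT cells held 65.2, 70.3, 78.6 and 154 CPM in 2D, 52.0, 62.9 and 92.5 in monoculture and 70.7, 77.3 and 97.0 in co-culture. The e.v. and cl.21 libraries overlapped in HoxBan and not in 2D. KDM3A was lower in cl.21 than in e.v. cells in HoxBan (-0.89 ± 0.23, adjusted p = 0.0235), a call that leaving out any of 6 libraries ends, and its change from 2D to HoxBan in e.v. cells was 0.72 ± 0.29 (adjusted p = 0.0572). The demethylase KDM4B fell in WT (-0.88 ± 0.28, adjusted p = 0.0209), with changes of -0.73 ± 0.31 in e.v. (adjusted p = 0.0682) and -0.59 ± 0.31 in cl.21 (adjusted p = 0.165), and KDM4C, at 4.18 to 10.8 CPM, passed no test. ZNF395, a zinc finger factor, fell from 84.4 to 101 CPM in 2D to 19.8 to 45.1 in HoxBan in e.v. cells, from 63.2 to 83.9 to 17.5 to 57.4 in cl.21 and from 90.9 to 143 to 26.8 to 87.1 in WT, without overlap in any line. Its changes were -1.42 ± 0.30 (adjusted p = 6.39e-04), -1.10 ± 0.30 (adjusted p = 0.0075) and -1.17 ± 0.28 (adjusted p = 0.00239). JMJD6, a nuclear oxygenase, rose by 0.97 ± 0.20 in e.v. (adjusted p = 4.21e-04) and 0.84 ± 0.19 in cl.21 (adjusted p = 0.00177), and the MYC antagonist MXI1 by 0.80 ± 0.29 in e.v. (adjusted p = 0.0312), with 0.64 ± 0.28 in cl.21 (adjusted p = 0.0869).

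Of the genes that restrain growth under stress, DDIT4 and TXNIP were lower in cl.21 than in e.v. cells in HoxBan. DDIT4 (ENSG00000168209, chromosome 10, 72273920 to 72276036) inhibits mTOR signalling when oxygen or energy is short. DDIT4 was at 28.0, 35.4 and 35.9 CPM in e.v. 2D, 48.9, 148 and 167 in monoculture and 126, 154 and 164 in co-culture. In cl.21 it was at 18.4, 27.0 and 29.5 CPM in 2D, 56.4, 76.4 and 97.0 in monoculture and 52.0, 55.4 and 67.8 in co-culture. WT cells held 29.0, 57.6, 76.3 and 133 CPM in 2D, 58.0, 104 and 124 in monoculture and 75.0, 78.0 and 128 in co-culture. In HoxBan 5 of 6 e.v. libraries lay above all of cl.21, and library 11 lay below all of cl.21. DDIT4 rose by 2.01 ± 0.38 in e.v. (adjusted p = 2.01e-04) and 1.44 ± 0.37 in cl.21 (adjusted p = 0.00459), and their responses differed by -0.57 ± 0.50 (adjusted p = 1.00). The HoxBan difference between cl.21 and e.v. was -0.98 ± 0.28 (adjusted p = 0.037) and is lost when any of 8 libraries is left out. Against WT cl.21 was lower in 2D (-1.58 ± 0.39, adjusted p = 0.0329), or -1.13 (adjusted p = 0.176) without libraries 5, 19 and 28.

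TXNIP (ENSG00000265972, chromosome 1, 145992435 to 145996600) binds thioredoxin and limits the uptake of glucose. TXNIP was at 109, 118 and 129 CPM in e.v. 2D, 150.2, 277 and 449.6 in monoculture and 301, 310.3 and 315 in co-culture. The cl.21 values were 34.7, 64.5 and 70.8 CPM in 2D, 72.2, 75.2 and 122 in monoculture and 53.5, 62.4 and 103 in co-culture. WT cells held 72.8, 115, 142 and 292 CPM in 2D, 142, 144 and 308 in monoculture and 155, 161 and 291 in co-culture. In HoxBan all 6 cl.21 libraries lay below all e.v. and WT libraries. TXNIP rose in e.v. cells by 1.33 ± 0.37 (adjusted p = 0.00716), and its change in cl.21 was 0.53 ± 0.37 (adjusted p = 0.294), but the difference of those responses, -0.80 ± 0.50, did not pass (adjusted p = 1.00). In HoxBan cl.21 was lower than e.v. (-1.88 ± 0.30, adjusted p = 1.95e-04) and lower than WT (-1.29 ± 0.29, adjusted p = 0.00518), or -0.88 (adjusted p = 0.0544) without libraries 5, 19 and 28. NDRG1, induced by many stresses, passed no test and spread from 47.5 to 505 CPM, with its highest value in each WT culture in library 5, 19 or 28.

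ANKRD37 had the largest change of any member tested, both from 2D to HoxBan and between cl.21 and e.v. cells. ANKRD37 (ENSG00000186352, chromosome 4, 185396021 to 185400628) encodes a small ankyrin repeat protein. ANKRD37 was at 5.34, 5.68 and 6.89 CPM in e.v. 2D, 10.5, 88.5 and 139.7 in monoculture and 76.0, 82.8 and 83.5 in co-culture. The cl.21 cells held 3.20, 5.33 and 6.26 CPM in 2D, 3.93, 6.11 and 9.38 in monoculture and 3.73, 4.79 and 5.68 in co-culture. WT cells held 8.52, 18.3, 20.6 and 76.1 CPM in 2D, 7.09, 27.3 and 29.9 in monoculture and 18.6, 20.6 and 29.0 in co-culture. The e.v. HoxBan libraries lay far above those in 2D except library 11 at 10.5 CPM, which still exceeded every cl.21 library, and the highest WT value was that of library 5 in 2D. ANKRD37 rose 13.3-fold in e.v. cells (3.73 ± 0.66 on the log2 scale, adjusted p = 9.38e-05), with changes of 0.19 ± 0.67 in cl.21 (adjusted p = 0.867) and -0.50 ± 0.49 in WT (adjusted p = 0.463). In HoxBan cl.21 held 7.06% of the e.v. level, a difference of -3.83 ± 0.51 (adjusted p = 1.88e-05), while in 2D the difference was -0.28 ± 0.75 (adjusted p = 0.99). Against WT, ANKRD37 was lower in cl.21 in HoxBan (-1.96 ± 0.51, adjusted p = 0.0129) and in 2D (-2.65 ± 0.66, adjusted p = 0.0353), the latter -1.67 (adjusted p = 0.268) without libraries 5, 19 and 28. The difference of the responses of cl.21 and e.v., -3.55 ± 0.91, had an unadjusted p of 5.74e-04 and an adjusted p of 1.00 by edgeR. Without library 11 it was -3.81 (adjusted p = 0.147). The last exon of ANKRD37 overlaps that of UFSP2 on the opposite strand, whose own change from 2D to HoxBan in e.v. cells was 0.06 (adjusted p = 0.74) and whose difference between cl.21 and e.v. in HoxBan was -0.01 (adjusted p = 0.98). Among the other members without a common role, TMEM45A, a membrane protein at 0.152 to 8.25 CPM, was lower in cl.21 than in WT in HoxBan (-2.11 ± 0.64, adjusted p = 0.0332), or -0.87 (adjusted p = 0.297) without the 3 high WT libraries. The small GTPase RAB20, at 20.5 to 45.2 CPM, and WSB1, the substrate receptor of a ubiquitin ligase at 91.6 to 260.2 CPM, passed no test.

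**Figure D4:**
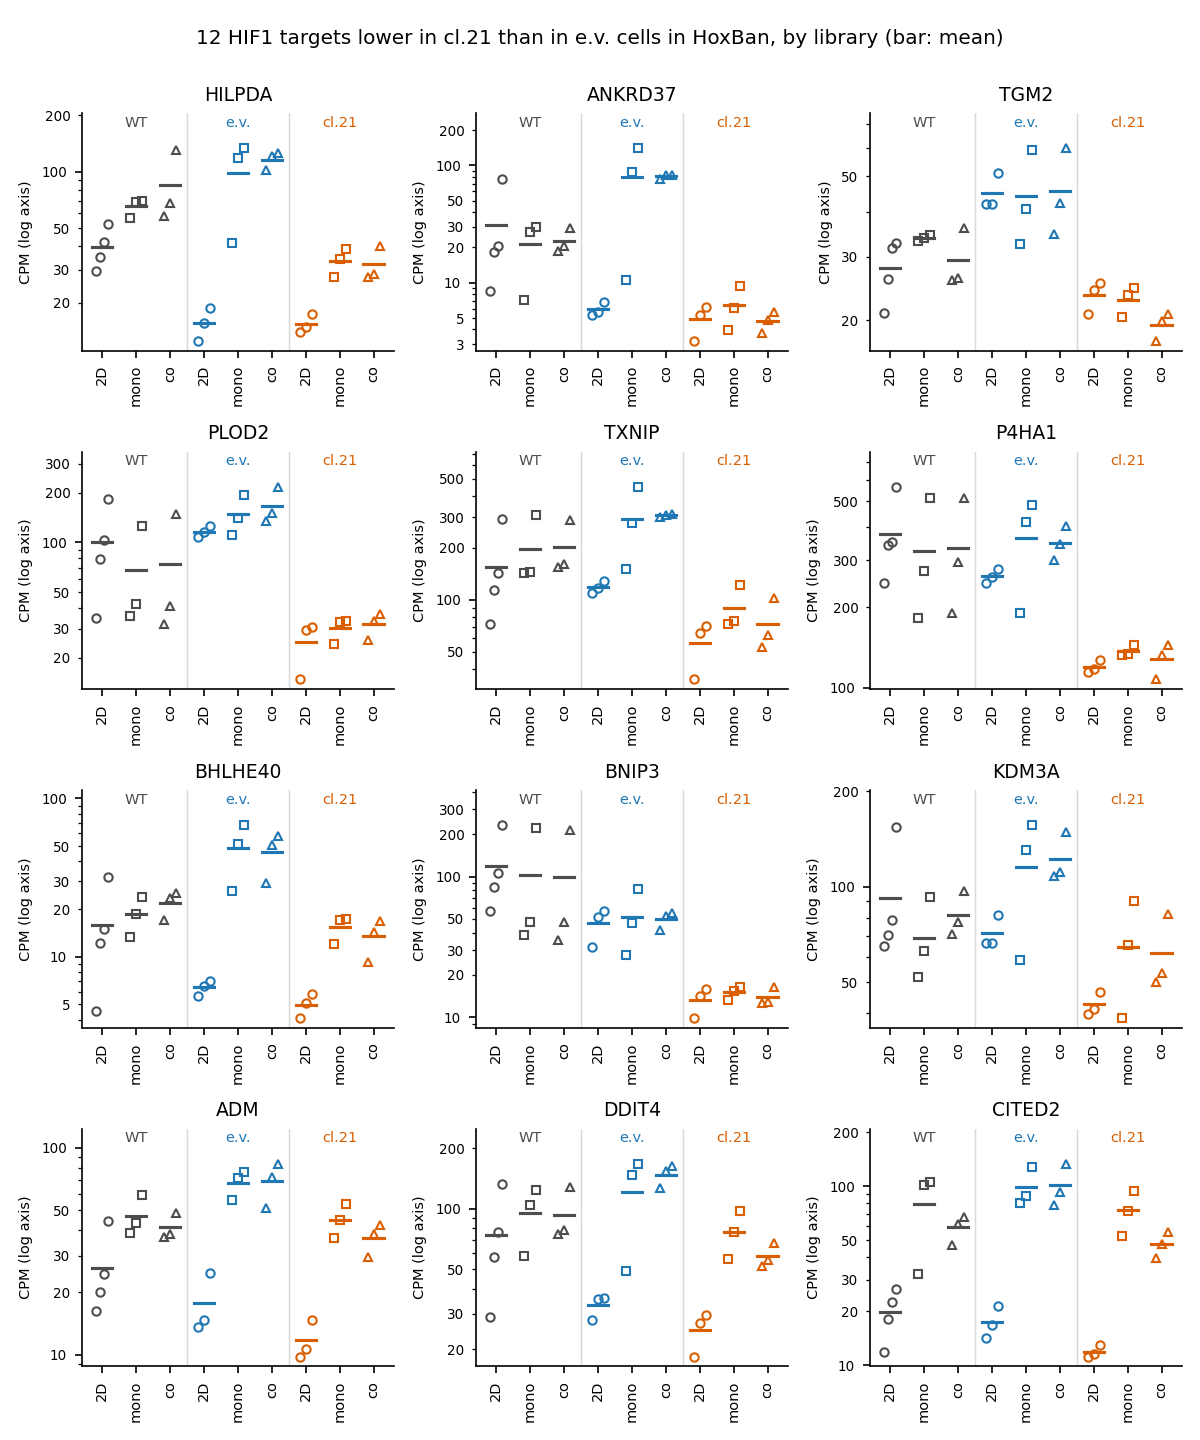
Level in CPM (vertical log axis, 1 panel per gene) of the 12 members lower in cl.21 than in e.v. cells in HoxBan, by library, in 2D (circles), monoculture (mono, squares) and co-culture (co, triangles) of WT, e.v. and cl.21 cells, with a bar at the mean of each group. Panels run in order of adjusted p, and the cl.21 libraries of P4HA1 and BNIP3 lie below all others in each culture. Those of ADM, DDIT4 and CITED2 rise in HoxBan to levels that overlap the e.v. range.

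The 12 members are set out here by their estimates in each culture, and no difference of responses passed the test for any of them. PLOD2, P4HA1, TGM2, BNIP3 and KDM3A did not pass the test from 2D to HoxBan in any line, and their log2 differences from e.v. were -2.23, -1.14, -0.95, -1.82 and -0.76 in 2D beside -2.32, -1.41, -1.07, -1.79 and -0.89 in HoxBan. HILPDA, BHLHE40 and ANKRD37 differed from e.v. by -0.03, -0.37 and -0.28 in 2D beside -1.69, -1.68 and -3.83 in HoxBan, and these are the 3 members whose difference of responses had an unadjusted p under 0.05, although none had an adjusted p under 0.05. ADM, CITED2 and DDIT4 rose in cl.21 by 1.80, 2.33 and 1.44, beside 1.94, 2.51 and 2.01 in e.v. cells. TXNIP differed from e.v. by -1.08 in 2D and -1.88 in HoxBan. Against WT in HoxBan, PLOD2, P4HA1, TGM2, BNIP3, HILPDA, TXNIP and ANKRD37 were also lower in cl.21. The calls of PLOD2 and TXNIP against WT are lost without WT libraries 5, 19 and 28. ADM, BHLHE40, CITED2, KDM3A and DDIT4 were lower in cl.21 than in e.v. cells only, and passed no test against WT in HoxBan.

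The e.v. cells were not the same as WT cells in these genes. In HoxBan 6 members were higher and 1 lower in e.v. than in WT cells, against 6.09% and 4.9% of all genes. PLOD2 (1.15 ± 0.35), TGM2 (0.50 ± 0.15), VLDLR (1.14 ± 0.33), ADM (0.63 ± 0.20), BHLHE40 (1.22 ± 0.29) and ANKRD37 (1.86 ± 0.44) were higher, with adjusted p of 0.032, 0.0247, 0.0253, 0.0386, 0.00719 and 0.00732, and CA12 was lower. Only the calls of BHLHE40 and ANKRD37 held without each of the 28 libraries in turn. The median over the members was 0.08, beside -0.03 for all genes. Without WT libraries 5, 19 and 28 the count was 6 higher and 0 lower (661 and 434 of all genes), with MXI1, KDM3A and TXNIP in place of TGM2, VLDLR and ADM. The difference of PLOD2 was then 2.05 (adjusted p = 5.27e-05).

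No member passed the test for the bacterium in the agar. Between co-culture and monoculture over the 3 lines, 0 members were higher and 0 lower by edgeR, against 0.817% and 1.18% of all genes. At an unadjusted p under 0.05 these counts of members were also 0 (1115 and 1259 of all genes). DESeq2 called 0 members, where it called 303 of all genes higher and 330 lower. The median log2 difference was -0.06, beside -0.02 for all genes, and the values of the members that rose in HoxBan were 0.21 ± 0.18 for HILPDA, -0.13 ± 0.16 for ADM, -0.32 ± 0.18 for CITED2 and -0.10 ± 0.39 for ANKRD37. Within each line, 0 members passed the test as well, but so did 0 of all genes in either direction, so that count does not set the members apart.

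The glycolytic HIF1 targets, a list of 23 genes that were all tested, gave a reference for the members. In e.v. cells 7 of the 23 rose from 2D to HoxBan and 0 fell (15.2% and 18.6% of all genes). In cl.21 5 rose and 0 fell (13.4% and 15.8%), and in WT 0 rose and 1 fell (12.4% and 16%). The medians were 0.33, 0.08 and -0.04. In HoxBan 8 of 23 were lower in cl.21 than in e.v. cells and 0 higher (2.72% and 2.84% of all genes). Their median was -0.45, close to the -0.49 of the members. In the same culture 13 were lower and 1 higher in cl.21 than in WT (4.73% and 6.62% of all genes). Of 10 genes of the HIF system itself (the α subunits, ARNT and ARNT2, the prolyl and asparaginyl hydroxylases and VHL), 9 were tested. From 2D to HoxBan 0 of them rose and 3 fell in WT, 2 rose and 4 fell in e.v. and 2 rose and 3 fell in cl.21. In HoxBan 2 were lower in cl.21 than in e.v. cells, with a median of 0.01. The shares of all genes in these comparisons are those just given for the glycolytic list.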

How the data were processed

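The table holds raw counts per Ensembl gene for 32 QuantSeq 3′ libraries, which the authors deposited as whole numbers, mapped to GRCh38 per the submitters' processing notes. The counter and annotation, and whether counting used strand, are not stated in the sources used here. Table entries without a gene name held 0.0679% of counts, and 0 sample columns were left unused. Members were located with GENCODE 29 on GRCh38. From these counts, 9 groups (28 libraries, 4144373 to 6686797 counts each) were fitted together with edgeR 4.0.16 (filterByExpr, TMM, quasi-likelihood test, Benjamini-Hochberg threshold 0.05 over 12849 genes) in R 4.3.3, without covariates, and HoxBan was the mean of monoculture and co-culture. The SE was derived from the fold change and the F statistic. The filter removed 4 members. In pairs of libraries of a group, counts differed by more than sampling noise (chi-square per degree of freedom at least 4.04), so none was counted as a copy.

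The members and lists were chosen with earlier results of these data known. Values are given for every member called in a response, a difference of responses or a cl.21 contrast and for the 2 highest members of each of 8 roles, and values per library for the 12 members with the smallest adjusted p between cl.21 and e.v. in HoxBan. Members beyond that rule were named after their values were seen. In simulated counts for 12642 genes, with 200 changed, 74% of 2-fold and 100% of 4-fold changes were found for HoxBan against 2D in e.v. cells. For cl.21 against e.v. in HoxBan these shares were 86% and 100%. Those counts were drawn independently for each gene, without shifts of a whole library, so the shares in the data may be lower. Alternatives were upper-quartile factors, no filter on low counts, the mitochondrial share as a covariate, either HoxBan culture alone, only the groups compared, DESeq2 1.42.0, each of the 28 libraries left out, and, chosen after seeing the data, WT libraries 5, 19 and 28 left out together. The 4 WT libraries grown with other media or stool are single samples and entered no comparison.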

Additional observations from a re-analysis of the deposited data

Results flagged for a closer look

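In WT 2D, the group with 4 libraries, 5 of the 38 tested members had 1 library far above the rest by Dixon's test (13.2%), as had 662 of 12849 tested genes in either direction (5.15%). Chance reaches this in about 1 of 20 groups. P4HA2 was at 91.33 CPM in library 5, where the nearest other library had 57.65. PLIN2 was at 330.7 CPM in the same library beside 143.9, and KDM3A at 154.2 beside 78.61. TMEM45A was at 8.253 CPM in library 5 beside 2.498. CA12 was at 21.91 CPM in library 12, where the nearest other library had 4.996.

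The 4 single WT libraries, grown with other bacterial media or with stool and placed in no group, held 5 members above every WT HoxBan library. Their lowest PLIN2 value was 247.4 CPM, where the highest WT HoxBan library had 183. For KDM3A these values were 107 and 97.05 CPM, for DDIT4 172.4 and 127.7, for ANKRD37 57.0 and 29.91, and for RAB20 45.23 and 40.52. By the same measure 5 of 38 members (13.2%) and 461 of 12849 genes (3.59%) lay above, and the labels give these libraries no replicates, so no test was made.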

How the results depend on the processing

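No paired analysis was possible because the numbers in the labels are unique to each library and groups share none. Of 76 calls of members, 2706 values under the alternatives included 0 of the opposite sign, 281 past the threshold no longer and 2425 still past it, and 43 calls held without each single library. Counts of members that moved by more than 1.5 times are given here for each comparison, and the cause was not tested. Brackets give the count of all genes called in that direction under the same setting. Without the filter on low counts, which leaves more genes in the test, 5 members fell (2092) in WT from 2D to HoxBan. In cl.21 13 rose (1409) and 3 fell (2125). Among the differences of responses, 2 were lower (7) in cl.21 minus e.v. and 1 was higher (34) in cl.21 minus WT. In e.v. minus WT 9 were higher (58). Lower in cl.21 than e.v. were 19 (445) in HoxBan and 10 (167) in 2D. Against WT, 1 was higher (941) in HoxBan and 22 were lower (260) in 2D. In HoxBan 11 were higher (954) and 7 lower (690) in e.v. than WT. With monoculture alone as HoxBan, 1 fell in WT (1104), 1 in e.v. (1455) and 0 in cl.21 (1289). Then 7 were lower (74) in cl.21 than e.v. and 1 lower (112) than WT, with 0 higher (103) and 0 lower (38) in e.v. than WT. With co-culture alone 7 were lower (85) in cl.21 than e.v. and 2 lower (62) than WT. Then 0 were higher (142) and 0 lower (89) in e.v. than WT. With only the groups compared, 1 fell in WT (1713) and 2 in cl.21 (1799). In 2D 1 was higher (184) and 11 lower (204) in cl.21 than e.v. cells. In HoxBan 9 were lower (275) in cl.21 than WT, and 3 were higher (346) in e.v. than WT. With the mitochondrial share as covariate, 2 fell (2427) in cl.21, 3 were lower (816) in e.v. than WT and 1 was lower (741) in co-culture than monoculture. DESeq2 called 3 higher (11) in the response of e.v. minus WT. Without WT libraries 5, 19 and 28 together, 9 fell in WT (1855) and 2 in cl.21 (2090), and 7 were lower (71) in cl.21 than e.v. in 2D. Against WT, 1 was higher (860) and 9 lower (518) in cl.21 in HoxBan, and 7 were lower (78) in 2D. In HoxBan 0 were lower (434) in e.v. than WT. Upper-quartile factors moved no count by that much.

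Counts over all genes are not given here for the fits with 1 library left out. With 1 library left out, the count that fell in WT ranged from 2 to 6 (5 without WT 2D library 8, 6 without WT co-culture 28). In e.v. it ranged from 1 to 3 (1 without e.v. 2D 26 or 32). The response of cl.21 minus e.v. had 0 to 1 lower (1, HILPDA, without e.v. monoculture 11), and that of e.v. minus WT 0 to 3 higher (1 without WT co-culture 3, 2 without WT 2D 8, 3 without e.v. monoculture 11). Between cl.21 and e.v., 7 to 13 were lower in HoxBan (7 without e.v. monoculture 15) and 0 to 2 in 2D (0 without cl.21 1, 2 or 31 or e.v. 26, 1 without e.v. 23 or 32). Between cl.21 and WT, 0 to 2 were higher in HoxBan (2 without cl.21 monoculture 7, 1 without WT co-culture 20), 9 to 15 lower in HoxBan (9 without cl.21 monoculture 4) and 2 to 17 lower in 2D (2 without cl.21 1 or 2 or WT 5, 4 without cl.21 31). Between e.v. and WT, 2 to 9 were higher (2 without e.v. monoculture 25, 3 without WT co-culture 28) and 0 to 1 lower (0 without e.v. 14, 18 or 25 or WT 16, 19 or 28). Of the named calls against e.v. in HoxBan, those of CITED2, DDIT4, ADM, KDM3A and BNIP3 are lost without 19, 8, 7, 6 and 1 of the 28 libraries. Depth limits BHLHE41, VLDLR, CA12 and TMEM45A, whose low levels rest on few counts per library.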
